A study of Mus musculus with 2 samples.

Results

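The serpins are a family of proteins named for serine protease inhibition, and they were followed here in 2 liver sections, 1 from an AEG-1ΔMAC mouse and 1 from an AEG-1fl/fl mouse. Members were all genes whose symbol is Serpin, a clade letter from a to i and a number, and 56 of the 19465 genes listed in both libraries met this rule. Spatial transcriptomics was performed on formalin-fixed, paraffin-embedded liver with probe pairs, and a unique molecular identifier (UMI) counted each captured probe pair in a barcoded spot that can hold several cells. AEG-1ΔMAC (AEG-1DMAC in the labels) mice carry floxed AEG-1 and Cre recombinase expressed from the Lyz2 locus, which removes AEG-1 from myeloid cells such as macrophages and leaves it in hepatocytes. AEG-1fl/fl mice carry the same floxed alleles without Cre and served as control. Both animals were 27 weeks old. The labels put them on a high fat and high sugar diet from week 7 on, for 20 weeks in all, but the methods of the study describe control diet-fed littermates for this assay. The diet is therefore not settled, and it carries the same label in both libraries.

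There was 1 library per genotype, so genotype, animal, section and capture area cannot be told apart, no test was run and no p-value is given. After the spot filter, AEG-1ΔMAC kept 2140 spots with 45453286 UMIs (20929.5 in the median spot), and AEG-1fl/fl kept 2540 spots with 50322850 UMIs (18285 in the median spot). The libraries share 1782 spot barcodes. Levels are UMI counts scaled to a common library total (counts per 1000000 UMIs, CPM). A genotype ratio is the log2 of the AEG-1ΔMAC level divided by the AEG-1fl/fl level, so that a negative ratio is lower in AEG-1ΔMAC, and its 95% interval covers counting error only. The median genotype ratio of the 6933 genes that averaged 10 CPM or more was 0.15 and not 0, so each ratio has to be read against that shift too. Albumin (Alb) took 8.80% of the AEG-1ΔMAC UMIs and 14.2% of the AEG-1fl/fl UMIs. The summed markers of hepatocytes, most of which is Alb, had a genotype ratio of -0.50, while the median of the 6 markers was -0.28 and Apoc3 was at 0.21. The summed markers of Kupffer cells differed by 0.06, with single markers from -1.38 (Marco, at 13.9 and 36.1 CPM) to 0.24 (Csf1r). The summed markers of stellate cells differed by -0.01, with single markers from -0.48 (Colec11) to 0.13 (Ecm1). Mtdh, which encodes AEG-1, was at 66.3 and 60.2 CPM in the whole sections, which does not test a deletion limited to myeloid cells. Y-linked Ddx3y (36.7 and 32.3 CPM) and Eif2s3y (51.0 and 49.5 CPM) had UMIs in both libraries, and the labels do not give the sex. In spots that hold several cell types, fewer cells of a type and less RNA per cell cannot be told apart.

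An inhibitory serpin presents an exposed loop, the reactive centre loop, as bait. The protease cuts the loop, the serpin snaps into a new fold and the protease stays trapped on it, so the sequence of the loop sets which protease is held. Hepatocytes secrete most serpins of blood plasma, which restrain proteases of neutrophils, coagulation, fibrinolysis and complement. Some members inhibit nothing and carry hormones or, in the case of Serpinh1, help collagen to fold. Clade b serpins lack a classical signal peptide and act mostly inside cells.

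Serpina1 and Serpina3, which are single genes in human, are clusters of near-identical copies in mouse, and how far a probe told the copies apart is not known from the deposited files. Among the 5 Serpina1 copies, which lie side by side on chromosome 12, the coding sequences were 96.3% to 98.5% identical over 10 pairs. The 4 Serpina3 copies that averaged 10 CPM or more were 82.7% to 92.0% identical over 6 pairs. The sequences below encode the reactive centre loop, from its hinge to the proline and phenylalanine behind it, and show where the copies differ within it. Between Serpina1 copies, 6.17% to 14.8% of the bases of this stretch differed, against 1.53% to 3.71% of the whole coding sequence. They were read from the GRCm38 genome at the coordinates of the GENCODE M21 annotation, 5′ to 3′ on the coding strand. For Serpina1, capitals mark the 18 of 81 positions at which the 5 copies differ. Serpina1a and Serpina1b differed at 6 of these bases and Serpina1c and Serpina1e at 12.
Serpina1a, chr12:103853750-103853830, minus strand, exon 6 of 6: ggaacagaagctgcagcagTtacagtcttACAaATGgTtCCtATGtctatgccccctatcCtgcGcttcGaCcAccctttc
Serpina1b, chr12:103728317-103728397, minus strand, exon 5 of 5: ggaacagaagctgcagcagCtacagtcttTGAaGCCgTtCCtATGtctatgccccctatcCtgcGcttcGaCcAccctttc
Serpina1c, chr12:103895087-103895167, minus strand, exon 5 of 5: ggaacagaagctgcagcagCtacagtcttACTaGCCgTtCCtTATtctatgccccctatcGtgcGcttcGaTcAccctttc
Serpina1d, chr12:103763755-103763835, minus strand, exon 5 of 5: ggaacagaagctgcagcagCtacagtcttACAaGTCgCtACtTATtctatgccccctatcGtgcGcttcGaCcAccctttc
Serpina1e, chr12:103947093-103947173, minus strand, exon 5 of 5: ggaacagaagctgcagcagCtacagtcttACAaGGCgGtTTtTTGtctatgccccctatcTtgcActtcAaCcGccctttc
For Serpina3, the loop also differs in length, and capitals mark the stretch between the first 8 and the last 3 bases that the 4 copies share.
Serpina3k, chr12:104345269-104345352, plus strand, exon 5 of 5: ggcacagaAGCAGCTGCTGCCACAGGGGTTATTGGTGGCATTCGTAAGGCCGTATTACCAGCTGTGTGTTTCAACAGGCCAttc
Serpina3m, chr12:104393769-104393858, plus strand, exon 5 of 5: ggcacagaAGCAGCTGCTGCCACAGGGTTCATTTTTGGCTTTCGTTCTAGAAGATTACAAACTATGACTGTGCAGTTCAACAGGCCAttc
Serpina3n, chr12:104413448-104413537, plus strand, exon 5 of 5: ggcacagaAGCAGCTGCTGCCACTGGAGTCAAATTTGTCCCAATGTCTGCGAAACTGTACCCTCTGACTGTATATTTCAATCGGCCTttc
Serpina3g, chr12:104241072-104241161, plus strand, exon 5 of 5: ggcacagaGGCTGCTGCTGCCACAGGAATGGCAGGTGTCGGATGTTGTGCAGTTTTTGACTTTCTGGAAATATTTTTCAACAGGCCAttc

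Of the 56 members, 16 had 0 UMIs in both libraries and 14 had at least 1 UMI but a mean under 1 CPM. Another 5 were from 1 to 10 CPM. The other 21 were at 10 CPM or above, as were 6933 of the 19465 genes listed. Ratios and zonation are therefore described for 21 members and not for the whole family. Clade a gave 14 of these 21 from its 23 genes, and clade b gave 1 of its 22 genes. Chromosome 12 holds 22 members, and chromosomes 1 and 13 hold 12 each. The members together took 5.98% of the UMIs of AEG-1ΔMAC against 7.23% for AEG-1fl/fl, a genotype ratio of -0.28. The median log2 ratio of the 21 members was -0.16, against 0.15 for all genes at that level. Of the 21, 15 had a ratio under 0, as had 21.7% of all genes at that level. For 12 of those 15 the whole interval lay under 0, but this was not counted over all genes and gives no comparison with them. The Serpina1 and Serpina3 copies are counted singly here, although probes may not tell them apart. The 6 members above 0 were Serpina12, Serpina3m, Serpina1c, Serpina3n, Serpina3k and Serpina10, the last of which fell to 0 within rounding when the 50 most abundant genes were left out of the library totals.

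**Figure D1:**
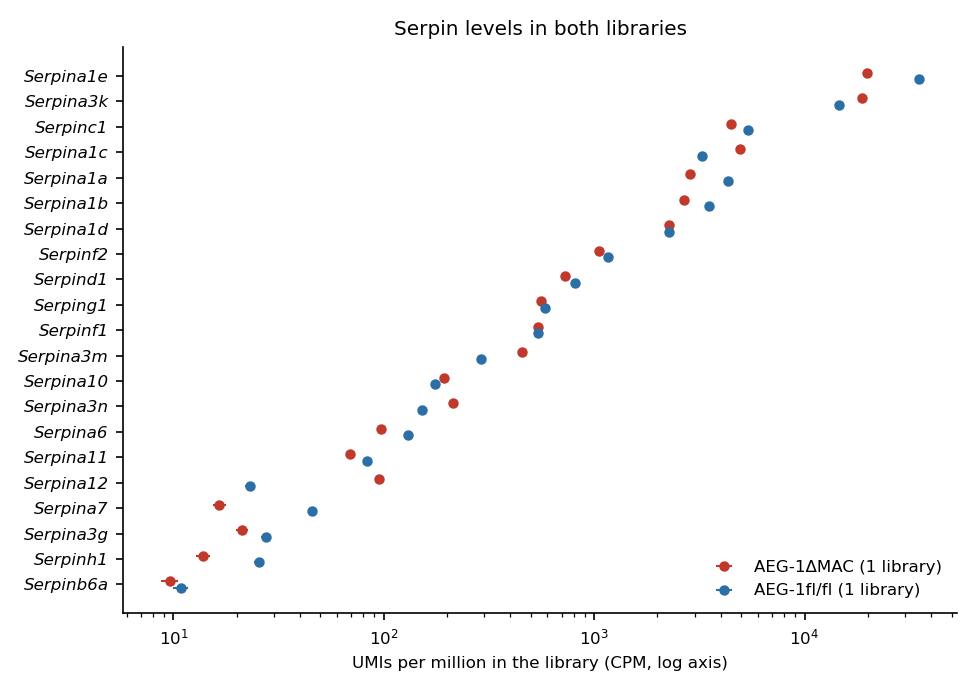
Levels of the 21 serpins that averaged 10 CPM or more, in CPM on a log axis, in both libraries (red, AEG-1ΔMAC; blue, AEG-1fl/fl); bars are exact Poisson 95% intervals, mostly narrower than the points. Serpina1e was at 19740.4 and 35002 CPM, and Serpina12 and Serpina7 show the widest gaps between the libraries, in opposite directions.

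By size, 1 member was at least 2-fold higher in AEG-1ΔMAC with its interval above 0 (Serpina12), as were 1.27% of all genes tested, and 1 was at least 2-fold lower (Serpina7), as were 0.519%. At a fold of 1.5, 3 members were higher (Serpina12, Serpina3m and Serpina1c; 4.3% of all genes) and 4 were lower (Serpina7, Serpinh1, Serpina1e and Serpina1a; 1.79% of all genes). Of these, Serpina1c, Serpina1e and Serpina1a are near-identical copies and Serpina3m belongs to the other copied cluster, so their single calls are uncertain. Taken relative to the median of all genes, only Serpina12 stayed 1.5-fold higher, and the same 4 members stayed 1.5-fold lower. Of the 6933 genes tested, 165 and 192 were so, respectively. Serpinh1 joined Serpina7 among the members at least 2-fold lower, as were 51 of all genes tested. In all, 16 of 21 members lay within 1.5-fold of the median of all genes, as did 94.9% of the genes tested.

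**Figure D2:**
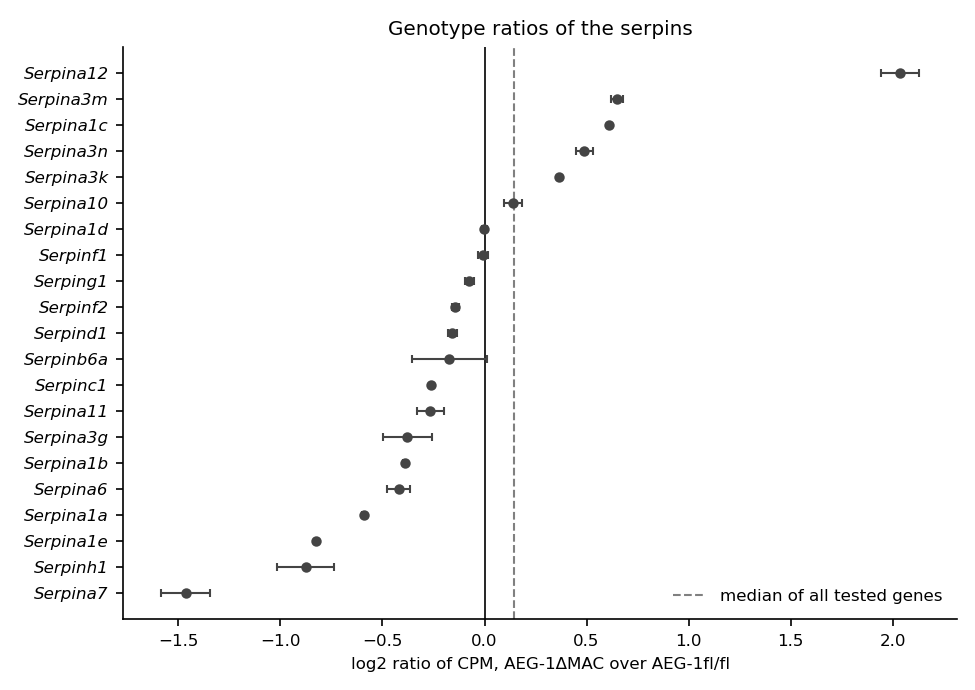
Genotype ratio, the log2 of the AEG-1ΔMAC level divided by the AEG-1fl/fl level, for the same 21 serpins, with exact conditional 95% intervals; the solid line is 0 and the dashed line the median of all tested genes, 0.15. Serpina12 stands at 2.03 and Serpina7 at -1.46, and the Serpina1 copies spread from -0.83 to 0.61.

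The Serpina1 genes are the mouse copies of the gene of alpha-1 antitrypsin, which is made in hepatocytes. In human, that protein is the main plasma inhibitor of neutrophil elastase. The mouse copies differ within the loop, and which protease each copy holds was not tested. Serpina1e (chr12:103946931-103958975) was at 19740.4 CPM in AEG-1ΔMAC against 35002 CPM in AEG-1fl/fl. Its genotype ratio was -0.83 (-0.83 to -0.82), or -0.97 relative to the median of all genes. Serpina1a was also lower in AEG-1ΔMAC, at 2861 against 4309 CPM (log2 ratio -0.59), and so was Serpina1b, at 2682 against 3512 CPM (-0.39). Serpina1c went the other way and was higher in AEG-1ΔMAC, with 4957 against 3243 CPM (0.61, 0.60 to 0.62). Serpina1d was at 2269 and 2270.2 CPM, a log2 ratio of -0.00 (-0.01 to 0.01). Neighbouring copies thus lay on either side of 0. Against the shift of all genes, Serpina1d was lower (-0.15) and Serpina1c higher (0.47). Because copies share long identical stretches, the value of a single copy is uncertain, and the sum is the firmer quantity. Summed, the 5 copies stood at 32509 CPM in AEG-1ΔMAC against 48337 CPM in AEG-1fl/fl, with a genotype ratio of -0.57 (-0.58 to -0.57), or -0.72 relative to all genes. Without Serpina1e, left out after its values were seen, the sum of the other copies had a log2 ratio of -0.06.

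The make-up of the Serpina1 UMIs differed as well. Serpina1e gave 60.7% of them in AEG-1ΔMAC (exact binomial 95% interval 60.6% to 60.8%) against 72.4% in AEG-1fl/fl (72.4% to 72.5%), while Serpina1c gave 15.2% and 6.71%, respectively. Within a library there were thus 3.98 Serpina1e UMIs for each Serpina1c UMI in AEG-1ΔMAC against 10.8 in AEG-1fl/fl. This quotient is free of the library scaling, and the intervals of the libraries (3.96 to 4.001 and 10.7 to 10.8) did not overlap. Over single spots, Serpina1e ranged from 11906 CPM at the 5th percentile to 26362 CPM at the 95th in AEG-1ΔMAC, while the same percentiles of AEG-1fl/fl were 27386 and 41460.4 CPM. These spot ranges did not overlap, but the share of all genes with such a gap was not counted. Spots of a section are also not replicates and give no spread between animals. For Serpina1d, in contrast, the spot ranges were 1651 to 2868 and 1629 to 2942 CPM. Alb was lower in AEG-1ΔMAC too (log2 ratio -0.69), and when the 50 most abundant genes were left out of the library totals the Serpina1 sum stood at -0.71.

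Serpina3 genes descend from the ancestor of human alpha-1 antichymotrypsin, an inhibitor of chymotrypsin-like proteases that rises in the acute phase. Serpina3k (chr12:104338486-104346144) was at 18707 CPM in AEG-1ΔMAC against 14551 CPM in AEG-1fl/fl, with a genotype ratio of 0.36 (0.36 to 0.37). Serpina3m was at 454 and 289.8 CPM (0.65, 0.62 to 0.68), and Serpina3n, the copy best known as an acute phase gene, at 214 and 152 CPM (0.49, 0.45 to 0.53). All 3 were higher in AEG-1ΔMAC. Serpina3g, known from leukocytes, went the other way with 21.2 against 27.5 CPM (-0.38, -0.50 to -0.26). The annotation places Serpina3k within the span of Serpina3m, and both start at the same base. Summed over the 9 listed copies, Serpina3 stood at 19404 and 15027 CPM (genotype ratio 0.37, or 0.22 relative to all genes), of which Serpina3k gave 96.4% and 96.8% of the UMIs. Without Serpina3k, left out after its values were seen, the sum had a log2 ratio of 0.55. Both clusters lie on chromosome 12 and moved apart, with 1.68 Serpina1 UMIs for each Serpina3 UMI in AEG-1ΔMAC against 3.22 in AEG-1fl/fl.

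The serpins that hold coagulation, fibrinolysis and complement in check differed less. Serpinc1, antithrombin, which inhibits thrombin and factor Xa with heparin as cofactor, was at 4478 and 5363 CPM (log2 ratio -0.26, -0.27 to -0.25). Serpinf2, alpha-2 antiplasmin, was at 1054 and 1164 CPM (-0.14), and Serpind1, heparin cofactor, which inhibits thrombin, at 726 and 809.6 CPM (-0.16). These 3 were lower in AEG-1ΔMAC beyond counting error, by less than 1.5-fold. Serping1, the inhibitor of the complement protease C1, was at 557 and 586 CPM (-0.07). Serpina10, the protein Z-dependent inhibitor of factor Xa, was at 194 and 176 CPM (0.14, 0.10 to 0.18), a ratio that equals the shift of all genes within its interval. Serpina11, a little-studied liver serpin, was at 69.2 and 83.1 CPM (-0.27). Of the proteases they act on, 9 of 11 hemostasis proteases (among them F2, thrombin's gene, -0.15, and Plg, plasminogen's gene, 0.04) and 6 of the 9 listed complement proteases reached 10 CPM, and none of them was 1.5-fold apart in either direction. Of all genes tested, 4.3% were 1.5-fold higher and 1.79% were 1.5-fold lower. The medians of these protease lists were 0.01 and -0.05.

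The serpins that carry hormones and do not inhibit proteases showed wider gaps. Serpina7 (chrX:139079257-139085236), thyroxine-binding globulin, had 751 UMIs in AEG-1ΔMAC against 2293 in AEG-1fl/fl, which is 16.5 CPM (15.4 to 17.7) against 45.6 CPM (43.7 to 47.5). The level in AEG-1fl/fl was 2.76-fold that in AEG-1ΔMAC (genotype ratio -1.46, -1.58 to -1.34, or -1.61 relative to all genes). Spots with at least 1 Serpina7 UMI made up 24.4% and 44.4% of the libraries, although the AEG-1ΔMAC spots were the deeper ones. Serpina6, corticosteroid-binding globulin, was at 97.0 and 129.8 CPM (-0.42, -0.48 to -0.36), also lower in AEG-1ΔMAC. Within a library there were 0.170 Serpina7 UMIs for each Serpina6 UMI in AEG-1ΔMAC against 0.351 in AEG-1fl/fl. Of 11 genes listed for thyroid hormone and glucocorticoid handling, 10 averaged 10 CPM or more (Thra, at 9.37 and 10.4 CPM, did not), and 5 were at least 1.5-fold higher in AEG-1ΔMAC, as were 4.3% of all genes. Fkbp5, which binds the glucocorticoid receptor complex, was at 74.9 and 31.6 CPM (1.24), Thrsp, a lipogenic gene that responds to thyroid hormone, at 102 and 42.1 CPM (1.27), and Dio1, which converts thyroxine to its active form, at 30.7 and 15.3 CPM (1.004). Klf9 (0.77) and Tsc22d3 (0.69), which respond to glucocorticoid, were the others. Transthyretin (Ttr), the other liver-made carrier of thyroxine, was lower in AEG-1ΔMAC by a log2 ratio of -0.31, and the median of the list was 0.52.

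Serpina12 (chr12:104028769-104044443), vaspin, an adipokine that inhibits kallikrein and is linked with insulin sensitivity, was the member furthest apart. It had 4306 UMIs in AEG-1ΔMAC against 1164 in AEG-1fl/fl, which is 94.7 CPM (91.9 to 97.6) against 23.1 CPM (21.8 to 24.5). The level in AEG-1ΔMAC was 4.10-fold that in AEG-1fl/fl (genotype ratio 2.03, 1.94 to 2.13, or 1.89 relative to all genes). Spots with at least 1 UMI made up 79.3% and 34.8% of the libraries, and the median spot was at 79.0 CPM in AEG-1ΔMAC against 0 in AEG-1fl/fl. The 3 adipocyte markers summed to 0.0440 and 0.0397 CPM, so that adipocyte RNA was near 0 in both sections. Serpinf1, pigment epithelium-derived factor, which restrains vessel growth and is not known to inhibit a protease, was at 539 and 541 CPM (log2 ratio -0.01, -0.03 to 0.02). Agt, angiotensinogen, a serpin by fold whose symbol lies outside the rule, had a log2 ratio of -0.06.

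Serpinh1 (chr7:99345376-99353239) encodes HSP47, a chaperone that binds procollagen in the endoplasmic reticulum of collagen-making cells. It had 630 UMIs in AEG-1ΔMAC against 1279 in AEG-1fl/fl, which is 13.9 CPM (12.8 to 15.0) against 25.4 CPM (24.0 to 26.8), a genotype ratio of -0.87 (-1.01 to -0.74), or -1.02 relative to all genes. Of 12 collagen genes, 7 reached 10 CPM, 2 of which were at least 1.5-fold lower in AEG-1ΔMAC (1.79% of all genes) and none higher. These were Col14a1, at 45.2 and 82.3 CPM (-0.87), and Col4a1, at 24.5 and 41.4 CPM (-0.75). The fibrillar genes Col1a1 (-0.16) and Col3a1 (-0.39) were closer, and the median of the 7 was -0.38. The summed markers of stellate cells, the main collagen source in liver, were at 407 and 408 CPM (log2 ratio -0.01, -0.03 to 0.02). That interval holds 0 but not the shift of all genes, 0.15. The summed markers of vessel walls were at 45.8 and 41.4 CPM, with single markers from -0.24 (Tagln) to 0.62 (Myh11). Whether the number of collagen-making cells differed was not tested.

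Among clade b members, only Serpinb6a, an intracellular inhibitor of cathepsin G and related proteases, reached 10 CPM on average, with 9.61 and 10.8 CPM (log2 ratio -0.17, -0.36 to 0.01). Serpinb9, the inhibitor of granzyme B, was at 6.49 and 5.23 CPM, and Serpinb8, an inhibitor of furin, at 1.63 and 3.10 CPM. Gzmb itself was at 1.39 and 0.914 CPM, and Ctsg, the gene of cathepsin G, had 0 UMIs in both libraries. Outside clade b, Serpine2, protease nexin, an inhibitor of thrombin and other proteases on cell surfaces, was at 6.73 CPM (5.999 to 7.53) in AEG-1ΔMAC against 4.51 CPM (3.94 to 5.14) in AEG-1fl/fl. Serpina3f was at 6.67 and 6.60 CPM. The 14 members under 1 CPM had at most 19 UMIs in AEG-1ΔMAC against 60 in AEG-1fl/fl, and they give no ratio. For a member with 0 UMIs, a count of 0 allows, at 3 UMIs of the total, a level of up to 0.0660 CPM in AEG-1ΔMAC against 0.0596 CPM in AEG-1fl/fl.

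The remaining lists place the serpins among other liver proteins. Of the 12 listed genes of other plasma protease inhibitors, 11 reached 10 CPM, and 1 was 1.5-fold lower in AEG-1ΔMAC (1.79% of all genes), Pzp, a broad protease trap of the macroglobulin kind, at 3435 and 5159 CPM (log2 ratio -0.59). The median of these 11 was -0.20. Of the 14 listed acute phase genes, 12 reached 10 CPM, with a median of 0.02, and 3 of them were at least 2-fold higher in AEG-1ΔMAC (1.27% of all genes): Orm2 (32.7 and 6.04 CPM), Socs3 (24.6 and 8.51 CPM) and Saa3 (14.9 and 6.62 CPM). Apcs was lower (130.4 and 252 CPM, -0.95). The 4 tested receptors and cofactors of serpins included none 1.5-fold apart, with Lrp1, the hepatocyte receptor that clears serpin complexes, at 108 and 82.4 CPM (0.39). Nor did the 3 tested leukocyte and lysosomal proteases, Ctsl (-0.26), Ctsb (-0.14) and Ctss (0.37). Of all genes tested, 4.3% were 1.5-fold higher and 1.79% were 1.5-fold lower. The summed neutrophil markers were at 2.71 and 16.9 CPM. Most of each sum came from S100a9 (1.61 and 9.96 CPM) and S100a8 (0.880 and 5.25 CPM), while Ly6g had 0 and 3 UMIs. The gene of neutrophil elastase, Elane, had 0 and 1 UMI.

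Zonation was described by ranking the spots of each library from zone 1, around the portal vein, to zone 3, around the central vein, with 6 zone 1 and 3 zone 3 markers of the study, and by dividing them into 3 equal parts. The value given is the log2 ratio of CPM, zone 3 part over zone 1 part, within a library. Of the 21 members, 18 in each library were within 1.5-fold between these parts. The same count was not made over all genes. Of all genes tested, 2.93% were at least 1.5-fold higher in the zone 3 part of AEG-1ΔMAC and 1.95% in its zone 1 part. For AEG-1fl/fl these shares were 2.8% and 1.68%. The median zonation was -0.08 in AEG-1ΔMAC (0.09 for all genes), -0.16 in AEG-1fl/fl (0.07 for all genes), and 14 and 17 members, respectively, leaned to zone 1. How many of all genes leaned to zone 1 was not counted, so only the medians compare the members with them.

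**Figure D3:**
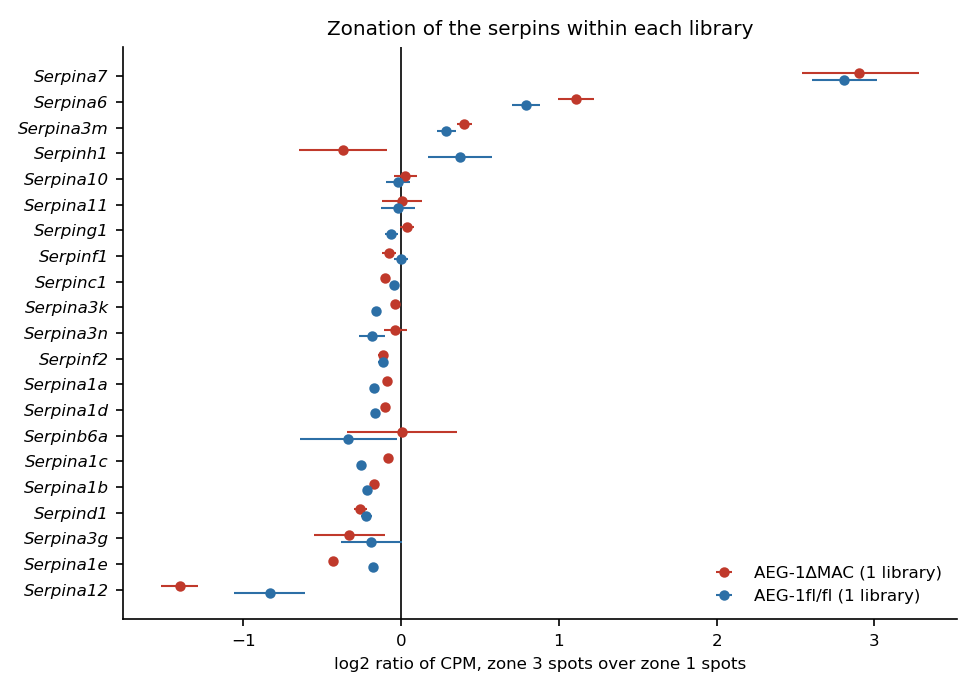
Zonation of 21 serpins, the log2 ratio of CPM in the zone 3 part over the zone 1 part of each library, with exact conditional 95% intervals; AEG-1fl/fl is blue and AEG-1ΔMAC red. Serpina7 and Serpina6 lie far to the zone 3 side and Serpina12 far to the zone 1 side in both libraries, and the libraries lie on opposite sides of 0 for Serpinh1.

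Toward zone 3, 2 members were at least 1.5-fold zoned in both libraries, the hormone carriers Serpina7 and Serpina6, where 2.93% of all genes were so zoned in AEG-1ΔMAC, with 2.8% in AEG-1fl/fl. Serpina7 went from 4.64 CPM in the zone 1 part to 34.7 CPM in the zone 3 part of AEG-1ΔMAC, while AEG-1fl/fl went from 13.8 to 96.4 CPM, a zonation of 2.90 (2.54 to 3.28) and 2.81 (2.61 to 3.01). The difference in zonation was 0.09 (-0.32 to 0.51), an interval on both sides of 0. Over the settings tried, this difference ran from -0.54 to 0.35, so its sign is not settled. In the 10% of spots nearest zone 3, Serpina7 was at 53.8 CPM in AEG-1ΔMAC against 175 CPM in AEG-1fl/fl. Serpina6 went from 62.7 to 135 CPM (zonation 1.11) and from 96.9 to 168 CPM (0.79). Its gradient was steeper in AEG-1ΔMAC by 0.32 (0.18 to 0.46). Serpina3m leaned the same way in both (0.40 and 0.29), unlike Serpina3k (-0.04 and -0.16).

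Toward zone 1, Serpina12 was the single member zoned at least 1.5-fold in either library, where 1.95% of all genes were so zoned in AEG-1ΔMAC, with 1.68% in AEG-1fl/fl. It was at 143 CPM in the zone 1 part and 54.1 CPM in the zone 3 part of AEG-1ΔMAC, while the same parts of AEG-1fl/fl were at 28.1 and 15.8 CPM, a zonation of -1.40 (-1.52 to -1.29) and -0.83 (-1.06 to -0.61). The gradient was steeper in AEG-1ΔMAC by 0.57 on the log2 scale (zonation difference -0.57, -0.82 to -0.32). Serpina1e leaned to zone 1 in both libraries, at -0.43 and -0.18, and its sharpest step was in AEG-1ΔMAC between the middle part (21308 CPM) and the zone 3 part (16118 CPM). As a sum, the Serpina1 copies stood at -0.30 and -0.18 and the Serpina3 copies at -0.03 and -0.15. Serpind1 leaned to zone 1 as well (-0.26 and -0.22), and Serpinf2 (-0.11 and -0.12) and Serpinc1 (-0.10 and -0.05) less so.

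**Figure D4:**
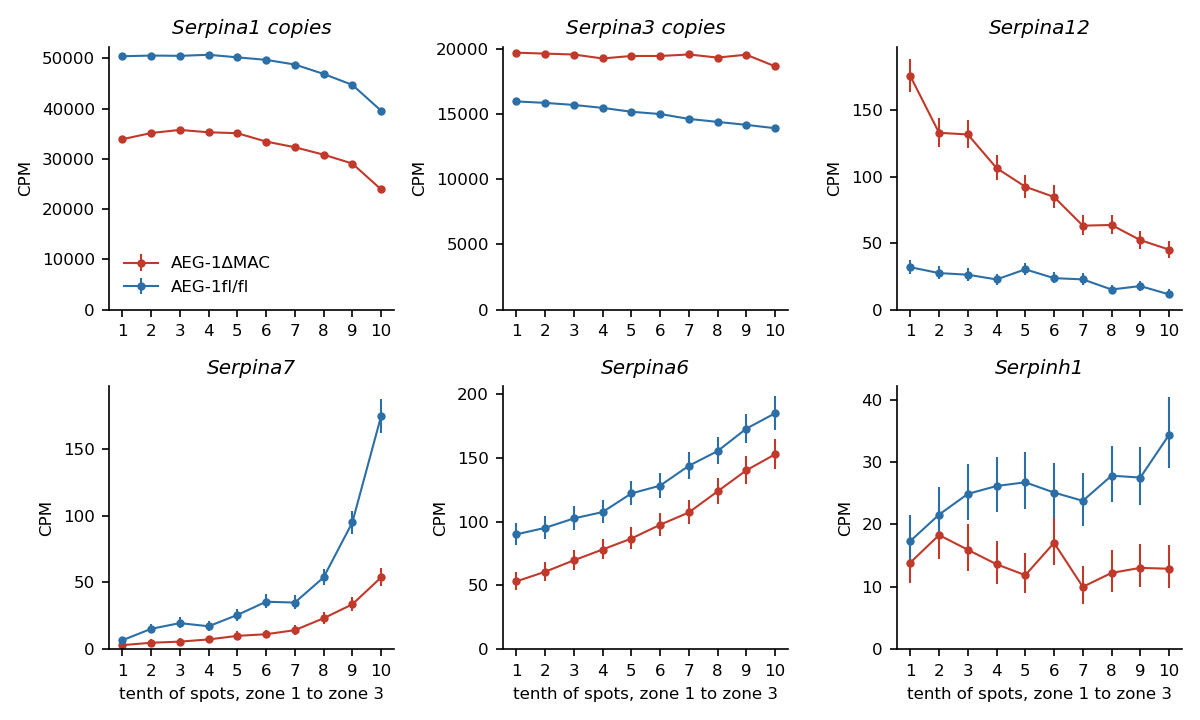
CPM (vertical axes from 0) in 10 equal groups of spots from zone 1 to zone 3, for the summed Serpina1 copies, the summed Serpina3 copies, Serpina12, Serpina7, Serpina6 and Serpinh1; red is AEG-1ΔMAC, blue is AEG-1fl/fl and bars are exact Poisson 95% intervals. The Serpina1 sum falls toward zone 3 in both libraries (to 23930.2 and 39577 CPM), Serpina12 is highest at the zone 1 end in AEG-1ΔMAC, and Serpina7 climbs steeply near zone 3.

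The zonation of 1 member, Serpinh1, differed at least 1.5-fold between the libraries, as did that of 1.29% of all genes. It was higher in the zone 1 part of AEG-1ΔMAC (16.2 against 12.5 CPM in the zone 3 part, zonation -0.37, -0.65 to -0.09) but in the zone 3 part of AEG-1fl/fl (28.3 against 21.8 CPM in the zone 1 part, 0.38, 0.17 to 0.58), a difference of -0.74 (-1.08 to -0.40). Zonation was also lower in AEG-1ΔMAC for 6 of the 7 collagen genes at 10 CPM or above, against 47.4% of all genes, with Col3a1 at -0.42 and 0.32 and Col4a1 at -0.44 and 0.15. The 5 markers of vessel walls, summed, had a zonation of -1.94 in AEG-1ΔMAC against -0.81 in AEG-1fl/fl, and those of cholangiocytes -2.33 and -1.64. Without the spots richest in vessel wall and cholangiocyte markers (340 AEG-1ΔMAC spots, 416 AEG-1fl/fl spots, left out after the values were seen), the Serpinh1 zonation turned to 0.26 (-0.11 to 0.63) in AEG-1ΔMAC and was 0.55 for AEG-1fl/fl, and the difference came to -0.29 (-0.72 to 0.14). The genotype ratio of Serpinh1 in the spots left was -1.06.

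Genotype ratios by zone part answer whether a difference belonged to some region of the lobule. For 19 of 21 members the ratio lay on the same side of 0 in all 3 parts, as for 75.3% of all genes, and the exceptions were Serpinf1 and Serpina1d, whose ratios were close to 0. Serpina12 was higher in AEG-1ΔMAC in the zone 1 part (2.35), the middle part (1.78) and the zone 3 part (1.78). Serpina7 was lower in each (-1.57, -1.42 and -1.48). The Serpina1e ratio widened toward zone 3, from -0.74 to -0.997, and the Serpina1c ratio from 0.54 to 0.71. Spots were ranked within each library, and the summed zone 3 markers were higher in AEG-1ΔMAC by 1.29 on the log2 scale. When parts were cut at the same marker values in both libraries, the zone 3 part held 43.7% of AEG-1ΔMAC spots against 24.6% of AEG-1fl/fl spots. Under this cut Serpina7 was at -1.93, -2.11 and -1.97 and Serpina6 at -0.81, -0.71 and -0.43 from zone 1 to zone 3, further below 0 than over the whole sections, and Serpina12 was at 2.48, 2.12 and 1.95.

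Serpins were also compared between the 10% of spots richest in the markers of a cell type and all other spots of the library. No member was at least 1.5-fold higher in both libraries in spots rich in markers of Kupffer cells (0.78% of all genes), stellate cells (0.303%) or sinusoidal endothelium (0.0866%). In stellate cell-rich spots, Serpinh1 had log2 ratios of 0.64 (0.29 to 0.97) and 0.51 (0.25 to 0.75), and it passed that fold in the 5% richest spots (0.71 and 0.61). Serpinh1 was the single member at least 1.5-fold higher in both libraries in spots rich in markers of cholangiocytes (1.6% of all genes) and of vessel walls (1.5%). In vessel wall-rich spots it was at 37.7 CPM against 11.1 CPM elsewhere in AEG-1ΔMAC (log2 ratio 1.76, 1.502 to 2.01), while in AEG-1fl/fl it was at 45.4 against 23.2 CPM (0.97, 0.75 to 1.17). In cholangiocyte-rich spots its log2 ratios were 1.33 and 0.75. Serpine2, below 10 CPM, showed a similar pattern, with log2 ratios of 1.11 and 1.13 in vessel wall-rich spots and 0.84 and 1.40 in cholangiocyte-rich spots. Serpina7 was lower in cholangiocyte-rich spots (-1.36 and -1.06) and in Kupffer cell-rich spots (-0.82 and -1.36), and the markers of both cell types leaned to zone 1.

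**Figure D5:**
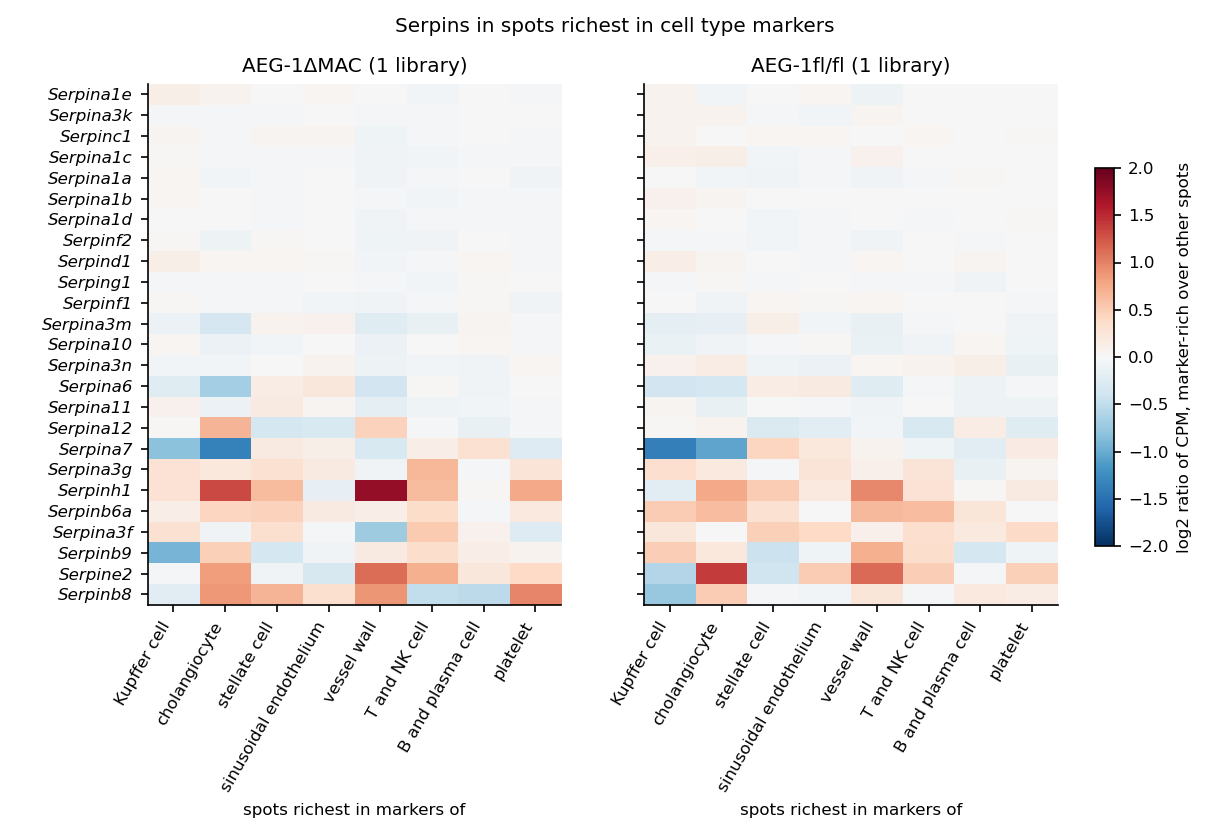
Log2 ratio of CPM in the 10% of spots richest in the markers of a cell type over all other spots, for 25 serpins with a mean of at least 1 CPM (rows) and 8 cell types (columns), in each library; red is higher and blue lower in marker-rich spots, colours end at -2 and 2, and grey has no value. Serpinh1 and Serpine2 are red in vessel wall-rich and cholangiocyte-rich spots of both libraries, while the abundant serpins in the upper rows are close to 0.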

How the data were processed

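The authors performed spatial transcriptomics (10x Visium) on formalin-fixed, paraffin-embedded liver sections, 1 per genotype. The deposited files hold raw UMI counts per gene and spot under tissue, which the authors made with Space Ranger 2.0.1 on the mm10 reference and its probe set; the submitters' processing notes also name Seurat 4.3.0. Spot positions were not used here. A count depends on how well its probes bind, so a level or share of UMIs is not an amount of transcript that can be ranked between genes.

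Spots with at most 50000 UMIs and 100 to 7000 genes were kept, which removed 9 AEG-1ΔMAC and 3 AEG-1fl/fl spots. UMIs were summed per library and scaled to CPM with exact Poisson 95% intervals, and ratios had exact conditional binomial (Clopper-Pearson) 95% intervals (Python 3.11.15, scipy 1.17.1). UMIs remove PCR copies, but spots of a section are not replicates, and the intervals cover counting error only. A call needed a mean of at least 10 CPM (455 and 503 UMIs), a fold of 2 or 1.5 and an interval on the same side. Members averaging 10 CPM or more were named, and those of at least 1 CPM could be; 1 of the latter is not reported here. Intervals of differences in zonation were approximate (delta method). Cell type marker lists were scored as their share of the UMIs of a spot. For the main zone ranking, marker counts were scaled to the total of the spot and log-transformed. Each zone marker was then standardised across the spots of its library, and the zone 1 mean was subtracted from the zone 3 mean. TMM factors came from edgeR 4.0.16. The ratio and its interval were tested on simulated data. The members and gene lists were chosen with earlier results of these data known. All 56 members matched GENCODE M21 (GRCm38, the assembly of mm10) by Ensembl identifier, and sequences were read from that assembly with Biopython 1.88. Probe sequences and the share of reads that copies share were not used here.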

Additional observations from a re-analysis of the deposited data

Results flagged for a closer look

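The zonation of Serpinh1 lay on opposite sides of 0 in the libraries, at -0.37 in AEG-1ΔMAC against 0.38 in AEG-1fl/fl, a difference of -0.743 on the log2 scale. With 1 library per genotype this difference was not tested. Markers of vessel walls and cholangiocytes also leaned to zone 1. Without the spots richest in those markers, left out after the values were seen, the zonation in AEG-1ΔMAC was 0.26 and the difference -0.29. The interval of that smaller difference lay on both sides of 0. The part of those cells in the difference was not tested.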

How the results depend on the processing

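The scalings moved the median genotype ratio of all genes from 0.15 to 0.02 under TMM and under median-of-ratios factors, and to 0.0039 without the 50 most abundant genes, and moved the members with it. Under each of these 3 scalings 1 member, not 3, was at least 1.5-fold higher, the Serpina1 sum was -0.696, -0.702 and -0.714 and the Serpina3 sum 0.245, 0.239 and 0.227, in that order. At least 2-fold lower were 2 members with median-of-ratios factors, 2 without the most abundant genes (Serpina7 and Serpinh1 in both) and 2 at a minimum of 1 CPM (Serpina7 among them). Serpina10 turned to -0.00267 without the most abundant genes. In spots matched on depth the sums were -0.568 and 0.363, and as a mean over spots the Serpina1 sum was -0.579. With an index of landmark genes 2 members (Serpina12 and Serpinb6a) were zoned toward zone 1 in AEG-1fl/fl, and in the outer 10% of spots 2 (Serpina12 and Serpina1e) in AEG-1ΔMAC. In matched spots the zonation of 2 members (Serpinh1 and Serpina12) differed 1.5-fold. With the top 5% of spots there were 4 enrichments in marker-rich spots, not 2, Serpinh1 giving 3 (cholangiocyte, stellate cell and vessel wall) and Serpinb6a 1. Without vessel wall-rich and cholangiocyte-rich spots, an alternative chosen after seeing the data, the Serpinh1 zonation in AEG-1ΔMAC was 0.258. The causes were not tested beyond what each alternative leaves out. Serpina12 stayed between 1.89 and 2.07. No paired analysis was possible because each genotype had 1 library, and no replicate could be left out. Neutrophil and mesothelium markers were in too few spots to rank both libraries.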
